A study of Homo sapiens with 6 samples.

Results

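Homeobox and PAX genes outside the HOX clusters were examined for promoter H3K4me3 in BE(2)-C cells after WDR5 knockdown. The 76 genes were all distinct names, among 16500 in the files, whose symbols were built like PAX2, SIX2, LHX2, LMX1B, DLX1, MSX1, NKX6-1, EMX1, MEOX1, OTX1, PITX1, MEIS1, PBX3, IRX3, POU3F2, SATB1 or ONECUT1, with any member number. The choice went by name alone, but a name had to stand in a peak list or a promoter table, so 14 genes with no promoter row were included only because a peak was listed for them. All 76 matched a RefSeq gene symbol, and 13 further RefSeq coding symbols of the same patterns were not analysed here. The BE(2)-C line, derived from a human neuroblastoma, carries amplified MYCN. Cells received control siRNA or WDR5 siRNA-1 for 24 hours, per the labels. H3K4me3, the trimethyl mark of active and poised promoters, was immunoprecipitated and sequenced (ChIP-seq) in 1 library per siRNA. WDR5 is a core subunit of the complexes that place this mark.

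The data were 2 lists of gene names, those whose transcription start site (TSS) had an H3K4me3 peak no more than 1 kb away in each library, and 2 tables of promoters that the authors called bound or not bound by N-Myc. The lists held 13618 distinct names with control siRNA and 11870 with WDR5 siRNA-1. A name is called control-only here when only the control siRNA list held it. No peak came with a height, read number or depth, and no group had a replicate. Every share below therefore describes these libraries, with no error between replicates and no test. A gene without a listed peak may still carry the mark below the calling threshold. How many peaks a library yields also depends on its depth and immunoprecipitation, which are unknown here and cannot be told apart from the siRNA.

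Homeodomain proteins bind DNA through a conserved helical domain, and PAX proteins carry a paired domain in addition to, or in place of, a full homeodomain. Together they set positional and cell identity in the embryo, and many neuronal types are defined by a combination of LIM, POU, NKX, PHOX and related factors. Their promoters are often rich in CpG dinucleotides. In cells that do not express them they are commonly held by Polycomb complexes, in part with H3K4me3 alongside. Neuroblastoma arises from the sympathoadrenal branch of the neural crest, where PHOX2A and ISL1 are homeobox regulators of identity.

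Control peaks of these genes were missing from the WDR5 siRNA-1 list for 21 genes and matched by a peak there for 30. Of the 76 genes, 51 had a peak with control siRNA (67.1%, against 82.5% of all 16500 names). With WDR5 siRNA-1, 31 had a peak (40.8%, against 71.9% of all names). Both lists held 30 of the 76, 21 were control-only, 1 (LHX2) was listed only with WDR5 siRNA-1 and 24 were in neither list. Over all 16500 names, 2785 were in neither list. The control-only genes made up 41.2% of the 51 with a control peak, against a background of 13.5% over all 13618 control names. Among the 37 that also had a promoter row, and so did not depend on a peak to be included, 14 were control-only (37.8%), against a background of 11.6% over all such promoters. LHX2 was 1 of 31 genes with a WDR5 siRNA-1 peak (3.23%), against a background of 0.817%.

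**Figure D1:**
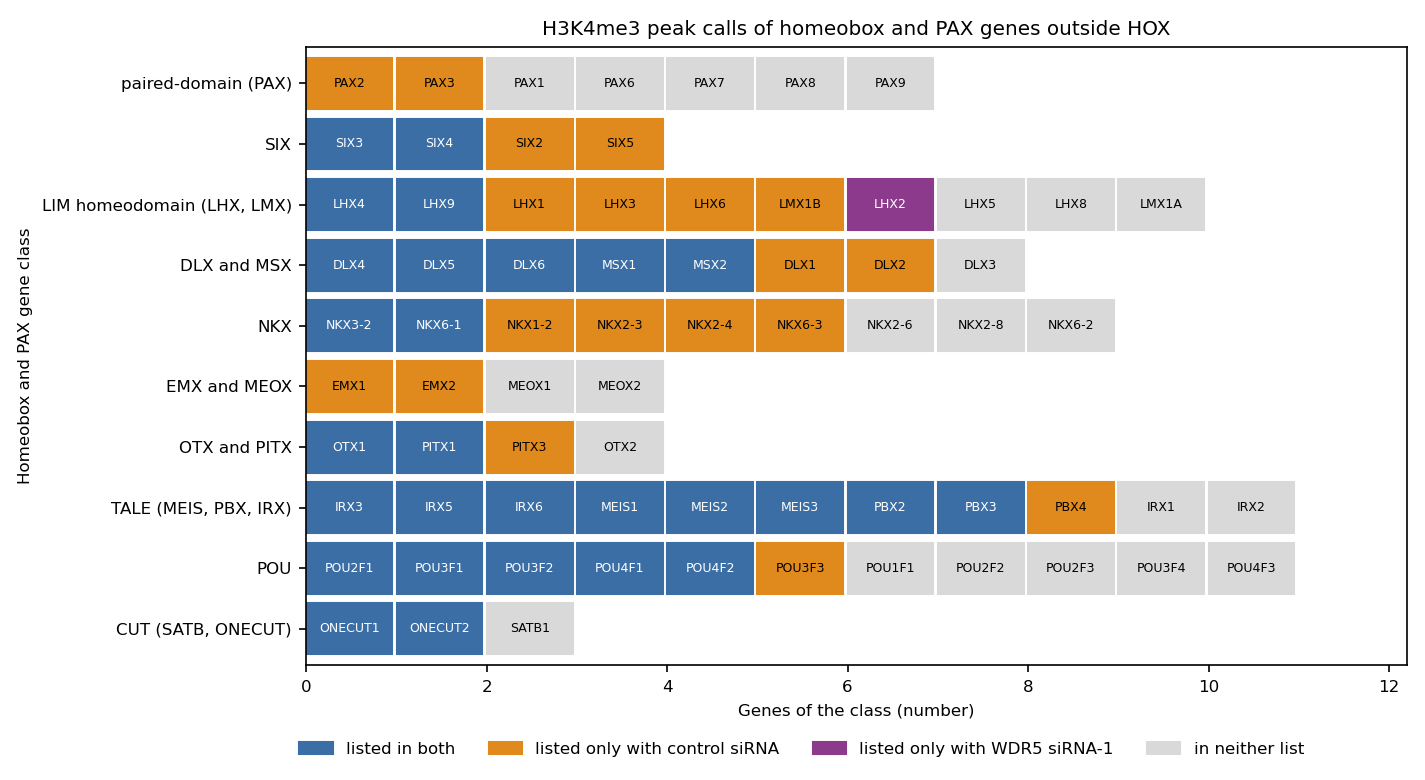
Each tile is 1 of 71 of the genes, arranged by class on the vertical axis and counted along the horizontal axis, and coloured by its H3K4me3 peak call in the control siRNA and WDR5 siRNA-1 libraries. Control-only tiles occur in 9 of the 10 classes. The TALE class holds the most genes listed in both, 8 of the 11 shown, where 11773 of all 16500 names were. Of these 8, IRX5, MEIS1, MEIS2 and MEIS3 had no promoter row and were included only because a peak was listed for them.

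Annotated promoter sequences of 6 genes are given as examples. The calls carry no peak position and the authors' start sites are on another build, so the bases need not be those under a peak. Each is the 250 bases upstream of a start site, 5′ to 3′ on the gene's strand, from RefSeq on GRCh38.p14, with every CG dinucleotide in capitals. DLX1, DLX2 and LMX1B were control-only and LHX2 was listed only with WDR5 siRNA-1. NKX6-1 and PBX3 were listed in both and were added for contrast after the calls were seen.
DLX1 (chr2:172085257-172085506, plus strand): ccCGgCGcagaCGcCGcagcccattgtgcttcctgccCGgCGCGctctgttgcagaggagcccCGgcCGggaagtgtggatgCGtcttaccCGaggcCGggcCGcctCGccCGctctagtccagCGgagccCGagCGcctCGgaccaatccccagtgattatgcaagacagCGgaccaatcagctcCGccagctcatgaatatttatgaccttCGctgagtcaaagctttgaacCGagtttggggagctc
DLX2 (chr2:172102901-172103150, minus strand): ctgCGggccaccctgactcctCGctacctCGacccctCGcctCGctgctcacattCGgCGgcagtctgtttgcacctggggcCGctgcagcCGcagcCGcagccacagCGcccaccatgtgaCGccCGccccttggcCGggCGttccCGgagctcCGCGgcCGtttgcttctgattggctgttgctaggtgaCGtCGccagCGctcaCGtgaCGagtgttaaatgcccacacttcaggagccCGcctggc
LMX1B (chr9:126613678-126613927, plus strand): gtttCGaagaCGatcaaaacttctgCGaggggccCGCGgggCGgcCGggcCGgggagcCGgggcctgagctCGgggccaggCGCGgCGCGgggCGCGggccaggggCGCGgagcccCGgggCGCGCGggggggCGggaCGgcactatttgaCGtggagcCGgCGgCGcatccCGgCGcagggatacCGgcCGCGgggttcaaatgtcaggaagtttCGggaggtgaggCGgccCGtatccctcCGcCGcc
LHX2 (chr9:124011518-124011767, plus strand): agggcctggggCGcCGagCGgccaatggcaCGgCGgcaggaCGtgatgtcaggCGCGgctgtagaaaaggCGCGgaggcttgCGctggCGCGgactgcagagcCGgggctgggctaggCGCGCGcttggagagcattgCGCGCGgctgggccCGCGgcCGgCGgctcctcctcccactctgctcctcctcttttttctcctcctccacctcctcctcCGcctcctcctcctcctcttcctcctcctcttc
NKX6-1 (chr4:84499293-84499542, minus strand): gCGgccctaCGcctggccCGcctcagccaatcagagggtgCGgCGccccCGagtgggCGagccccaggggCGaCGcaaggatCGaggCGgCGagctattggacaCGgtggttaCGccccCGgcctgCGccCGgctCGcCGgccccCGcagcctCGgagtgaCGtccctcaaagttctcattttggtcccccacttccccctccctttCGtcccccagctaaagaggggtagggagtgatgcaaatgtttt
PBX3 (chr9:125747933-125748182, plus strand): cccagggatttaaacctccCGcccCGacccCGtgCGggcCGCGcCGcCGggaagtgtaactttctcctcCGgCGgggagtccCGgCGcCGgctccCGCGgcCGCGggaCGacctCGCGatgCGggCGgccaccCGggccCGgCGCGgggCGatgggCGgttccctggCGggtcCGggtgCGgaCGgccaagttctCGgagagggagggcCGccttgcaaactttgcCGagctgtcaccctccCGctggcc
The 250 bases held 23 CG dinucleotides in DLX1, 25 in DLX2, 38 in LMX1B, 25 in LHX2, 23 in NKX6-1 and 36 in PBX3. NKX6-1 and PBX3 were chosen after the calls were seen, so no relation of CG number to the calls is read from these examples. The G and C content ranged from 63.6% in DLX1 to 76.4% in LMX1B. CACGTG, the E-box bound by MYC-family dimers, reads the same on both strands and occurred once, in DLX2. The authors called the DLX2 promoter not bound by N-Myc, and the PBX3 promoter, which they called bound, lacked CACGTG here. Of 22114 RefSeq symbols with a single promoter entry, 6.34% held CACGTG in the same 250 bases. RefSeq promoters matched 54 of the 76 genes (71.1%), below the 80% needed to compare sequence content over the whole group, so that comparison is void.

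PAX genes had the lowest share listed with control siRNA of the 10 classes, 2 of 7 (28.6%, against 82.5% of all names). None was listed with WDR5 siRNA-1, where 71.9% of all names were. All 7 had promoters called not bound by N-Myc. Of all such promoters, 58% had a control peak and 48.2% a WDR5 siRNA-1 peak. PAX2, a regulator of kidney and midbrain development, and PAX3, which specifies neural crest and muscle progenitors, were control-only. Their TSSs lay at chromosome 10, position 102505468 (PAX2) and chromosome 2, position 223163715 (PAX3), on hg19 as all TSS positions here. PAX1 and PAX9, which act in the axial skeleton, PAX6, the eye and forebrain regulator, PAX7, of muscle stem cells, and PAX8, of the thyroid, were in neither list.

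In the sine oculis homeobox family, SIX2, SIX3, SIX4 and SIX5 all had a control peak, where 82.5% of all names did. Among promoters called not bound by N-Myc, such as those of SIX2, SIX3 and SIX4, 58% did. Among those called bound, such as that of SIX5, 94.9% did. SIX3, which specifies forebrain and eye, and SIX4, which acts in placode and muscle development, were listed in both. SIX2 (chromosome 2, position 45236542), a factor of nephron progenitors, was control-only. Its TSS lay 67505 bp from that of SIX3, so these neighbours differed in their calls. SIX5 (chromosome 19, position 46272497), the gene beside the myotonic dystrophy repeat, was also control-only.

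LIM homeodomain genes, which encode regulators of neuronal subtype, had 4 control-only genes of 6 with a control peak (66.7%, against 13.5% over all names). They were LHX1, a factor of the head organizer and kidney, LHX3, of pituitary and motor neurons, LHX6 (chromosome 9, position 124991091), of cortical interneurons, and LMX1B (chromosome 9, position 129376722), of dorsal limb and midbrain neurons. LHX4, which acts with LHX3 in the pituitary, and LHX9, a gonad regulator, were listed in both. LHX3 and LHX4, close paralogs, thus had different calls. LHX1 and LHX3 had no promoter row and were included only because a peak was listed for them. LHX4, LHX6, LHX9 and LMX1B had promoters called not bound by N-Myc. Of all such promoters with a control peak, 17.9% were control-only. LHX2 (chromosome 9, position 126773889), a forebrain and eye regulator, had a call with WDR5 siRNA-1 alone. LHX5, LHX8 and LMX1A were in neither list.

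DLX and MSX genes pattern the forebrain, jaw and limb. With control siRNA, 7 of 8 were listed (87.5%, against 82.5% of all names). With WDR5 siRNA-1, 5 were listed (62.5%, against 71.9%). DLX6 had no promoter row, and the others had promoters called not bound by N-Myc. Of all such promoters, 58% had a control peak and 48.2% a WDR5 siRNA-1 peak. DLX1 (chromosome 2, position 172950208) and DLX2 (chromosome 2, position 172967478), paired genes of forebrain inhibitory neurons with TSSs 17270 bp apart, were both control-only. DLX5 and DLX6, the paired genes of jaw and limb, were both listed in both libraries. In the third pair, DLX4 was listed in both and DLX3, 26026 bp away, in neither. MSX1 and MSX2, effectors of BMP signalling in the craniofacial region, were listed in both.

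Of the 9 NKX genes named here, 6 were listed with control siRNA (66.7%, against 82.5% of all names). With WDR5 siRNA-1, 2 were listed (22.2%, against 71.9%). NKX2-3, NKX3-2 and NKX6-3 had no promoter row and were included only because a peak was listed for them. The others named had promoters called not bound by N-Myc. Of all such promoters, 58% had a control peak and 48.2% a WDR5 siRNA-1 peak. NKX6-1, a regulator of motor neurons and pancreatic beta cells, and NKX3-2, of cartilage, were listed in both. The control-only genes were NKX1-2 (chromosome 10, position 126138550), NKX2-3, which acts in gut and spleen, NKX2-4 (chromosome 20, position 21378047) and NKX6-3, of the stomach. NKX2-6, NKX2-8 and NKX6-2 were in neither list.

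The EMX, MEOX, OTX and PITX genes act along the head and body axes. EMX1 (chromosome 2, position 73144604) and EMX2, regulators of the cerebral cortex, were both control-only. MEOX1 and MEOX2, which act in the somites, were in neither list. OTX1, a forebrain factor, and PITX1, which specifies the hindlimb, were listed in both. PITX3 (chromosome 10, position 104001231), of midbrain dopamine neurons and the lens, was control-only, and OTX2, of forebrain and midbrain, was in neither list.

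The TALE class is named for a loop extension within the homeodomain. MEIS and PBX proteins bind DNA with HOX proteins as cofactors, and IRX proteins act in neural and cardiac patterning. MEIS1, MEIS2, MEIS3, PBX2, PBX3 (chromosome 9, position 128509617), IRX3, IRX5 and IRX6 were listed in both. PBX4 was control-only. IRX1 and IRX2, neighbours on chromosome 5, were in neither list.

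Of 11 POU genes, 6 had a control peak (54.5%, against 82.5% of all names). Among these 6, 1 was control-only (16.7%, against 13.5% over all names), a share that rests on 1 gene. POU2F1 and POU4F2 had promoters called bound by N-Myc, and POU3F1 had no promoter row. The others had promoters called not bound, and of all such promoters 58% had a control peak. POU2F1, a broadly expressed octamer-binding factor (chromosome 1, position 167190066), was listed in both. So were POU3F1 and POU3F2, factors of Schwann cells and neurons, and POU4F1 and POU4F2 (chromosome 4, position 147560045), factors of sensory and retinal ganglion neurons. POU3F3 (chromosome 2, position 105471969), a neuronal relative of POU3F2, was control-only. POU1F1 of the pituitary, POU2F2 of B cells, POU2F3 of tuft cells, POU3F4 of the inner ear and POU4F3 of hair cells were in neither list. In the CUT class, ONECUT1 and ONECUT2, of liver, pancreas and neurons, were listed in both, and SATB1, of T cells, was in neither list.

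The tables of N-Myc-bound and unbound promoters asked whether these genes fell to one side. Of 62 genes with a row in either table, 5 were N-Myc-binding promoters (8.06%), against 33.9% of all 9585 rows. PBX3, POU2F1, POU4F2 and SIX5 were among them. All 5 had a control peak, where 94.9% of all N-Myc-binding promoters did. With WDR5 siRNA-1, 4 of the 5 had a peak, where 91% of all N-Myc-binding promoters did. SIX5 was the control-only one, against a background of 4.18% of N-Myc-binding promoters with a control peak.

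Among the 57 non-binding promoters, the share with a control peak was near the background and the share with a WDR5 siRNA-1 peak was below it. Peaks were listed with control siRNA for 32 (56.1%), against a background of 58% over 6331 non-binding promoters. With WDR5 siRNA-1 they were listed for 20 (35.1%), against 48.2%. The control-only genes numbered 13 of the 32 (40.6%), against 17.9%. With all promoters of the table as the denominator, the shares were 22.8% for the 57 genes and 10.4% for all promoters. The 14 genes with no row in either table had a peak by construction, so nothing is read from their share. They split into 7 listed in both (DLX6, IRX5, MEIS1, MEIS2, MEIS3, NKX3-2 and POU3F1) and 7 control-only (with EMX2, LHX1, LHX3, NKX2-3, NKX6-3 and PBX4 among them). The background for names with no promoter row, which also stand in a peak list by construction, was 15.5%.

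**Figure D2:**
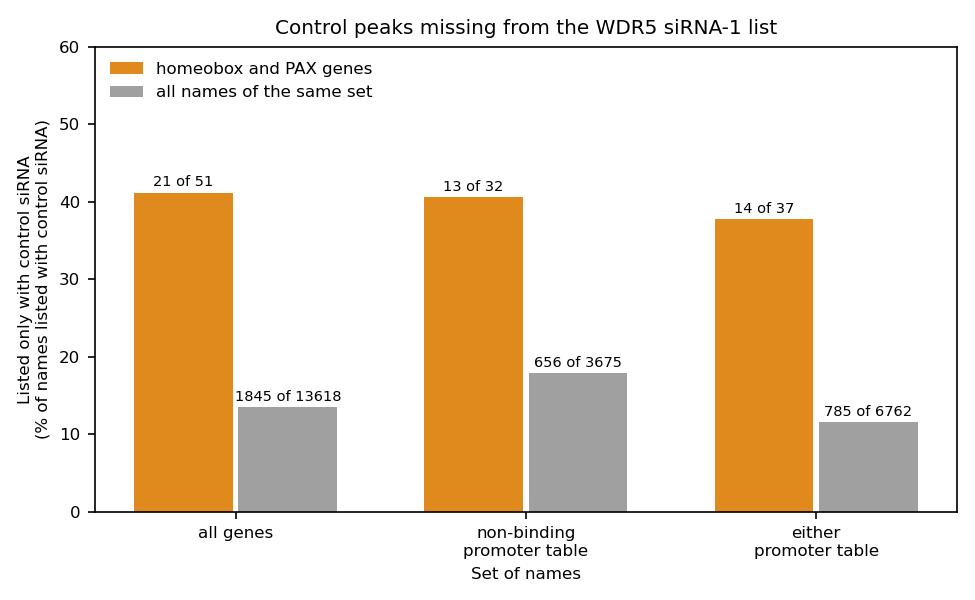
Bars give the percentage of names with a control siRNA peak that the WDR5 siRNA-1 list did not hold, for homeobox and PAX genes (orange) and for all names of the same set (grey), with the numbers above each bar. The orange bars stand at 41.2%, 40.6% and 37.8% and the grey bars at 13.5%, 17.9% and 11.6%.

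The rows of the non-binding table run in an order that its header does not explain, and the calls of these genes followed that order almost without overlap. The 19 genes listed in both held rows 12 (NKX6-1) to 2759 (OTX1), with a median of 1363. The 13 control-only genes held rows 2671 (SIX2) to 3696 (POU3F3), with a median of 3441. The 24 genes in neither list held rows 3613 (POU2F2) to 6236 (POU2F3), and LHX2 held row 3640. Only OTX1 among the genes listed in both stood after the first control-only gene. Only POU2F2 among those in neither list stood before the last control-only gene.

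Over all promoters listed in both, the median row (1510) was near that of the homeobox and PAX genes (1363). The same held for control-only promoters (3262, against 3441). For promoters in neither list the median was row 4962, against row 4186 for the homeobox and PAX genes. The 3019 promoters listed in both spanned rows 1 to 6331 and the 656 control-only ones rows 1529 to 6320. Ranges widen with the number of promoters, so these are not compared with those of the homeobox and PAX genes. The whole table followed a like order. Promoters listed in both numbered 1000 in rows 1 to 1000, 819 in rows 2001 to 3000, 181 in rows 3001 to 4000 and 6 in rows 4001 to 5000. In rows 1 to 2000, none of 13 homeobox and PAX genes was control-only. Over all promoters, the control-only ones were 0 of 1000 with a control peak in rows 1 to 1000, and 6 of 1000 (0.6%) in rows 1001 to 2000. In rows 2001 to 3000, 3 of 9 homeobox and PAX genes were control-only (33.3%), against 17.8% of all promoters with a control peak. In rows 3001 to 4000, the WDR5 siRNA-1 list held none of the 10 that had a control peak, and 71.2% of all such promoters were control-only. Beyond row 4000, none of 19 was listed in either library, where 3.39% of all promoters were. The title of both promoter tables names H3K4me3 quantification, but their columns hold only a TSS coordinate and a gene name. No label or header used here says what the order stands for, so the rows are a description and no level is read from them.

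**Figure D3:**
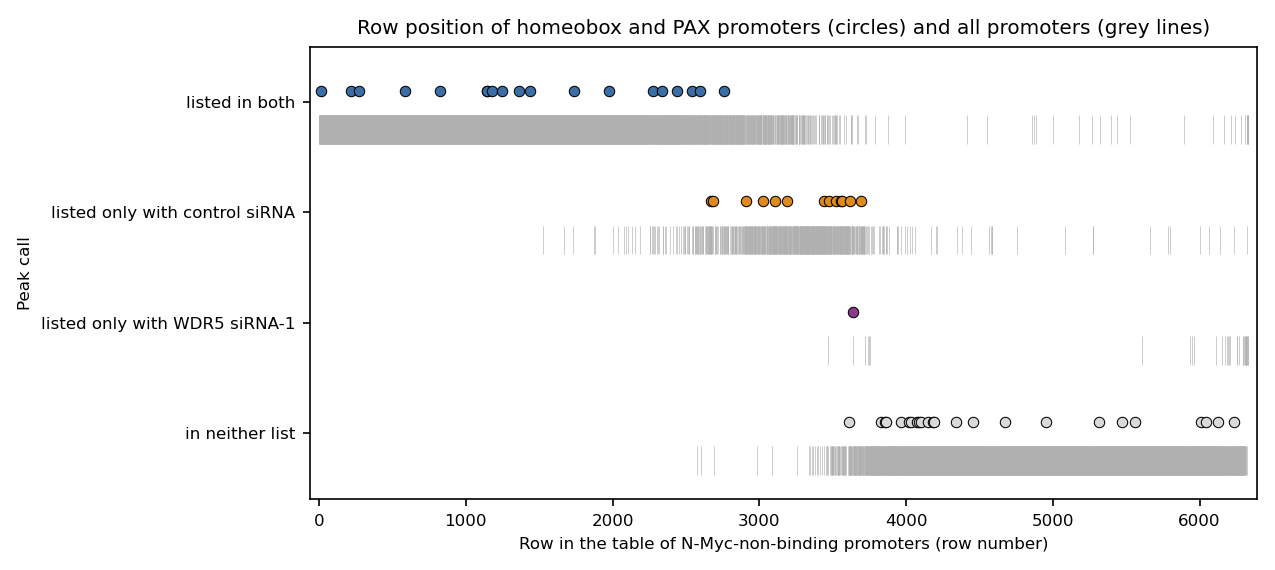
The horizontal axis is the row number in the table of N-Myc-non-binding promoters and the vertical axis the peak call. Circles are the 57 homeobox and PAX promoters and grey lines all 6331 promoters, and the control-only circles fall between rows 2671 and 3696.

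In the N-Myc-binding table of 3254 rows, PBX3 held row 28 and POU2F1 row 169. SIX5 held row 2602 and POU4F2 row 2628. The control-only SIX5 thus stood ahead of POU4F2, which was listed in both. The median row of all control-only promoters of that table was 2939.

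The neighbours of the control-only genes were read from the control list. The control list runs in genome order, since 3574 of 3578 consecutive pairs with known positions on 1 chromosome rose in position. For 14 of the 21 control-only genes, both flanking names in the list were listed in both libraries, such as SPR and SFXN5 around EMX1 and HIF1AN and FAM178A around PAX2. The other 7 (33.3%) had a control-only flanking name, near the 37.7% of all control-only names that did. Of 42 flanking names 10 were control-only (23.8%), near the 21.7% around all 1845 control-only names. Around homeobox and PAX genes listed in both, 11.7% of flanking names were control-only, near the 12.3% around all names listed in both. The 7 were DLX1, DLX2, LHX1, LHX3, PAX3, PBX4 and POU3F3. DLX1 and DLX2 flanked each other, PAX3 followed CCDC140, and PBX4 lay between CILP2 and LPAR2. Among the 76 genes, 13 pairs lay within 1 Mb of each other, and 7 of these pairs shared their call. Of those 7, IRX1 with IRX2 and NKX2-8 with PAX9 were in neither list. The share was not computed for pairs farther apart or for other names, so nothing is read from it.

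Cofactors of these proteins were control-only about as often as all names. Of 23 partners, 17 had a control peak and 3 were control-only (17.6%, against 13.5% over all names), namely DACH2, which acts with EYA proteins, the LIM-only gene LMO1, and PKNOX2, a TALE partner of PBX. The Groucho co-repressors TLE1, TLE2, TLE3 and TLE4 and the LIM-binding adaptor LDB1 were listed in both. EYA1, a co-activator of sine oculis homeobox proteins, was listed only with WDR5 siRNA-1, and EYA3 and EYA4 were listed in both.

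Homeobox genes outside HOX and outside these families were also examined. Of 72 such genes, 56 stood in any file and the control list held 34. Of those 34, 13 were control-only (38.2%, against 13.5% over all names). These were ISL2, EN2, GBX1, GBX2, BARHL1, HMX2, HMX3, GSX2, PRRX2, CUX2, ZEB2, GSC and LBX1. The sympathoadrenal regulators PHOX2A and ISL1 were listed in both. Signals that pattern the tissues where these genes act had 5 control-only genes of 9 with a control peak (55.6%, against 13.5% over all names), FGF8, BMP2, BMP4, the BMP antagonist NOG and SMO, the transducer of hedgehog signalling. GLI1, GLI3, PTCH1 and CHRD were listed in both. Of 30 antisense or neighbouring non-coding names looked up, 2 stood in the files used here, MEIS1-AS3, listed in both, and MSX2P1, control-only.

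Markers of several cell types were looked up in both lists, and no verdict on cell identity is drawn from them. All 7 adrenergic neuroblastoma markers had a control peak, where 82.5% of all names did. Of these 7, TH and DBH, enzymes of catecholamine synthesis, were control-only (28.6%, against 13.5% over all names). Of 6 Schwann cell markers only ERBB3 was listed, in both libraries. None of 11 blood, muscle and liver markers was listed, and of 5 epithelial markers only KRT18 was, with control siRNA alone. Only 3 of 5 blood, 3 of 4 muscle and 0 of 2 liver markers had a promoter row.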

How the data were processed

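H3K4me3 ChIP-seq libraries of BE(2)-C cells, 1 per siRNA, gave the peak lists. The 6 libraries of the series also comprise IgG and input, whose values were not analysed here. The submitters' processing notes name BWA 0.7.12, bedtools and the hg19 build but give no role for them. The peak caller and its threshold, and how N-Myc binding was decided, are not named in these sources. The deposited files hold gene names and 1 bp TSS intervals in no measured unit, so depth is unknown. The second coordinate was taken as the 1-based TSS.

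Names were reduced to distinct names and classed by list. MEIS3 was the 1 gene named more than once in a list. Promoters were joined by name, so a peak at another TSS of a gene can count for its row. Of 23 cofactors, 72 other homeobox genes, 30 non-coding names and 17 signals, those listed in 1 library are named, as are 71 of the homeobox and PAX genes. The other 5 enter the counts over the group and are not reported singly here. Counts within a class cover the named genes only. Promoter sequences were taken by symbol where RefSeq gave 1 entry. By rule they were those of the first 4 genes listed in 1 library with a promoter row, N-Myc-binding first and then alphabetical. The genes and gene lists were chosen with earlier results of these data known. Neighbours without a promoter row were placed by RefSeq GRCh38.p14 gene intervals. Planned checks of motifs over the group were void. Classing was tested on simulated data. Python 3.11.15, scipy 1.17.1 and matplotlib 3.10.9 were used.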

Additional observations from a re-analysis of the deposited data

How the results depend on the processing

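No paired analysis was possible because each siRNA had 1 H3K4me3 library, and for the same reason no replicate could be left out. Alternatives were judged against exact (Clopper-Pearson) 95% intervals over genes, which treat genes as independent draws and cover no library error. The control-only share was 41.2% (interval 27.6 to 55.8%), and the values of all 23 alternatives lay within that interval. Of the 23, 17 only left out 1 symbol family of the same genes. Such settings could hardly leave so wide an interval, so they are weak checks. With all 76 genes as the denominator the share was 27.6%, against 11.2% over all names. That is a different measure from the share of genes with a control peak. With 1 symbol family left out at a time, the control-only share of genes with a control peak ranged from 38.6 to 44.4%. Without genes that have another of the group within 1 Mb it was 44.1%. The share with a control peak ranged from 59.7 to 71% and the share with a WDR5 siRNA-1 peak from 38.4 to 44.9%. The non-binding share moved from 40.6 to 22.8% with all 57 promoters as the denominator, because promoters without a control peak then enter it. RefSeq synonyms and antisense or pseudogene suffixes changed no member. The motif window was not varied, since too few promoters matched.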
